A study of Homo sapiens with 4 samples.

Results

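The genes for collagens, laminins and integrins were examined in BEAS-2B cells, an established immortalised line of human bronchial epithelial cells. They were chosen by symbol alone: COL with a type and chain number, LAMA, LAMB or LAMC with a digit, ITGA with a number or the letter V, E, L, M or X, and ITGB with a digit. This gave 80 of the 24424 symbols, with 44 collagens, 12 laminins, 16 integrin alpha and 8 integrin beta genes. RNA was sequenced from 4 libraries of wild-type genotype grown in the same bronchial epithelial medium, with 1 library per condition. Control cells had no treatment, LPS cells received lipopolysaccharide for 2 hr, and the other libraries received wild-type PDZ peptide (WT PDZ+LPS) or mutant PDZ peptide (mut PDZ+LPS) for 24 hr and then LPS for 2 hr. The peptides were built on the first PDZ domain of ZO-1, a scaffold protein of tight junctions, with a Tat stretch for cell entry, and the mutant carried alanines in place of a pair of glycines. Peptide without LPS was not analysed here, so each peptide could be compared with LPS alone and with the other peptide only under LPS.

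Collagens are triple helices of alpha chains that form fibrils, networks or anchoring structures, and laminins are trimers of 1 alpha, 1 beta and 1 gamma chain that build the basement membrane under an epithelium. Integrins are pairs of an alpha and a beta chain that span the cell membrane and bind these matrix proteins. In airway epithelium a laminin that holds LAMA3 and LAMB3 binds the integrin of ITGA6 and ITGB4 in hemidesmosomes, the plaques that hold basal cells to the matrix, and ITGAV with ITGB8 can release active TGF-beta from its latent form.

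The libraries held 19682929 to 25155647 counts, the fewest in mut PDZ+LPS. Each library was scaled by its geometric size factor, from 0.851 to 1.15, and 1 normalized count was added before log2. With 1 library per condition the differences have no replicate check and no p-value, and the 95% intervals (exact binomial, Clopper-Pearson) cover only the counting error between 2 libraries. Epithelial markers were present, with 9 of 10 reaching 16 counts in each library and 36655 to 47519 counts in sum, the most in mut PDZ+LPS. KRT8 had 19031 counts in Control, CDH1 634 and EPCAM 51. VIM, a filament gene of mesenchymal cells that cultured epithelium also uses, had 23893 counts in Control. Other mesenchymal markers were also counted in Control, with THY1 at 1726, PDGFRB at 127 and FAP at 31. PDGFRA had 3, DCN 5 and TCF21 8 counts there. The 8 mesenchymal markers summed to 22753 to 25793 counts per library with LUM at 0 in all. The 6 leukocyte markers summed to 720 to 864 counts, nearly all from CD14 and CD68, with PTPRC at 0 in all libraries, and the 4 endothelial markers summed to 6 to 16 counts. In bulk libraries, fewer cells of a type and less RNA per cell cannot be told apart.

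Of the 80 genes, 72 had at least 1 count and 8 had none in any library: COL3A1, COL9A1, COL13A1, COL19A1, COL22A1, COL26A1, COL6A5 and ITGA8. 47 genes averaged 16 or more normalized counts across the libraries (23 collagens, 9 laminins, 9 integrin alpha and 6 integrin beta genes), and 25 were counted below that level. The low genes included COL17A1, the transmembrane collagen of hemidesmosomes, with 9 to 13 counts per library. The leukocyte alpha chains ITGAL, ITGAM and ITGAX had at most 12 counts in a library. ITGB6, another partner of ITGAV in airway epithelium, had 0, 2, 4 and 2 counts.

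Levels of different genes were compared as RPKM, the counts scaled by the total of the library and by transcript length. In Control the fibronectin- and collagen-binding partner chain ITGB1 had 221 and the laminin-binding chain ITGA3 had 177 RPKM. Among laminins the leading chains on the same scale were LAMB1 (95.8), LAMA5 (40.0) and LAMC1 (37.7). Thus 1 alpha, 1 beta and 1 gamma chain headed the laminin family. ITGB4 (48.0), ITGA5 (36.2), ITGB5 (19.3), ITGA6 (13.2) and ITGAV (12.3 RPKM) followed among the integrins. COL8A1, a short network-forming chain, led the collagens with 38.2 RPKM, before COL6A1 (22.1), a chain of beaded filaments, and COL4A4 (14.2) and COL4A2 (10.4), chains of the basement membrane. The fibril chain COL1A1 reached only 1.98 RPKM. With the median length of the protein-coding transcripts of a gene in place of the longest, the same genes led each family in Control, but COL4A2 and COL4A3 followed COL8A1, and ITGB5 stood above ITGB4.

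**Figure D1:**
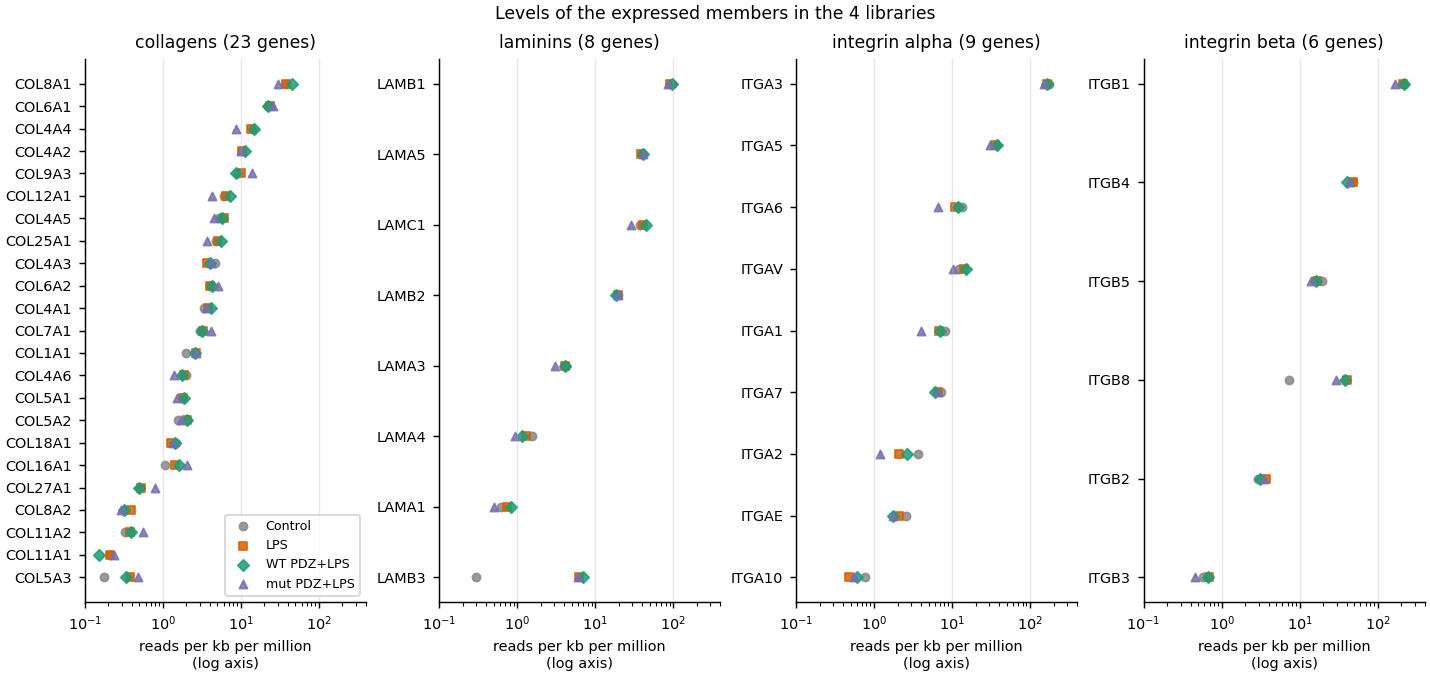
Each panel shows a family, with its genes that averaged 16 or more normalized counts on the vertical axis and RPKM on a log axis. Points are the 4 libraries, 1 per condition, and 46 of the 47 genes are drawn. LAMB3 and ITGB8 show a Control point far to the left of the other 3, and the levels within each family span more than a factor of 100.

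Partner chains were not at equal levels. COL1A1 stood 44.4 times above COL1A2, its usual partner in type I collagen, in RPKM in Control, with 331 against 6 counts. COL6A1 had 2329 counts in Control, COL6A2 341 and COL6A3 14. The pair COL4A1 and COL4A2 kept a ratio between 0.325 in Control and 0.367 in WT PDZ+LPS, so in all 4 libraries COL4A2 was the higher of the pair per length. ITGB1 and ITGA3 had a ratio between 1.10 in mut PDZ+LPS and 1.32 in WT PDZ+LPS. ITGB4 exceeded ITGA6 by 3.42 to 4.38 times in the first 3 libraries and by 6.58 times in mut PDZ+LPS. These ratios use the longest protein-coding transcript of each gene, and the isoforms in use were not measured. With median transcript lengths ITGB1 was 3.35 times ITGA3 in mut PDZ+LPS and 4.05 times in WT PDZ+LPS. ITGB4 was then 2.20 times ITGA6 in WT PDZ+LPS, 2.34 in Control, 2.82 in LPS and 4.24 in mut PDZ+LPS.

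The genes that differed most are shown with the sequence before their transcription start, because LAMB3 and ITGB8 differed from Control far more than the rest of their families. Each line gives the 250 bases before a RefSeq start on GRCh38.p14, in the direction of transcription. Capitals mark letters that match the NF-kB motif, a site of 10 bases searched by its consensus, or the AP-1 motif TGANTCA, on either strand. The sequence of LAMB3 start 1 is chr1:209652426-209652675 and that of start 3 is chr1:209651375-209651624, both on the minus strand, and ITGB8 is chr7:20330650-20330899 on the plus strand.
LAMB3 start 1: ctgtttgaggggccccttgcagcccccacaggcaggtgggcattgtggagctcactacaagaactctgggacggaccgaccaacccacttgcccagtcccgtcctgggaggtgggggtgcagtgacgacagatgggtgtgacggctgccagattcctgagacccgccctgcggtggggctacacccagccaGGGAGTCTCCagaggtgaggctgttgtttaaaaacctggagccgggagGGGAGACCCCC
LAMB3 start 3: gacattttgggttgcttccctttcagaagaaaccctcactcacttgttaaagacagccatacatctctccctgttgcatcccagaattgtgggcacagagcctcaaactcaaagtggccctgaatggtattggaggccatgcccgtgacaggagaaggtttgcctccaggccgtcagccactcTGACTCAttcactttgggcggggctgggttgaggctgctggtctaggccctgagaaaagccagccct
ITGB8 start 1: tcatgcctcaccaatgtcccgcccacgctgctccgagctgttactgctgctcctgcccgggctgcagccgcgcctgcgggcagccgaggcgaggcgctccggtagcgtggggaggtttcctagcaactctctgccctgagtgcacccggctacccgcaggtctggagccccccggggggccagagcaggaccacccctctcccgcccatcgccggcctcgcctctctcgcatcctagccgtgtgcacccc

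LAMB3 start 1 held NF-kB letters from -59 to -50 and 2 overlapping matches between -11 and -1, counted back from the start, and start 3 held TGACTCA from -67 to -61. The window of ITGB8 held neither motif, and neither did those of ITGA2 and COL5A3. Shares of promoters were taken over the 250 bases before and the 50 bases after each start. Over all 35116 promoters of the RefSeq table, 5.91% held the NF-kB motif and 7.71% the AP-1 motif. The table held 57 of the 80 genes with 76 promoters, of which 10 (13.2%) held the NF-kB motif, in COL6A2, COL7A1, COL15A1, COL25A1, ITGA1, ITGA5, ITGA10, ITGA11 and LAMB3. The AP-1 motif was in 4 (5.26%), those of COL10A1, ITGA5, LAMA3 and LAMB3. Of the 9 genes with NF-kB letters, 7 averaged 16 or more normalized counts, and LAMB3 was the only gene called higher in LPS. Over the 47 genes 3 were called higher, against 3.46% of 13277 genes. LAMB3 was chosen for display by its difference from Control, and such a match describes letters, not binding. The starts used in BEAS-2B cells were not measured.

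LPS/Control addresses which matrix and adhesion genes differed after 2 hr of LPS. LAMB3 and ITGB8 were many times higher in LPS, COL5A3 was about 2-fold higher at low counts, and ITGA2 was the lowest of the 47. Calls required a 2-fold difference and 16 or more normalized counts in 1 of the 2 libraries. By this rule 3 of 47 genes were higher in LPS, against 3.46% of 13277 genes, and 0 were lower, against 1.41%.

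LAMB3, the beta chain of the hemidesmosome laminin, had 32 counts in Control, 668 with LPS alone, 709 with WT PDZ+LPS and 507 with mut PDZ+LPS. As normalized counts these were 27.8, 628, 716 and 596. Control was low and the 3 LPS-treated libraries were high. The log2 fold change of LPS/Control was 4.45 (3.98 to 5.06), a fold of 21.8, which ranked LAMB3 at 36 of 13277 genes from the top.

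LAMA3, the alpha chain of that laminin, did not differ to the same degree. It had 963, 1020, 1027 and 747 normalized counts in the same order of libraries, with a log2 fold change of LPS/Control of 0.08 (-0.04 to 0.21). LAMB3 thus set Control apart and LAMA3 did not. Per length, LAMA3 was 14.0 times LAMB3 in Control and 0.655 times in LPS, but with median transcript lengths 32.0 and 1.5 times, so which of these chains was higher in LPS depended on the length used. LAMB1, the beta chain of the more abundant laminins, was still 14.6 times LAMB3 in LPS, after 320 times in Control, in RPKM.

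ITGB8, the beta chain that pairs with ITGAV, had 1575 counts in Control, 9011 with LPS alone, 7808 with WT PDZ+LPS and 5113 with mut PDZ+LPS. Its normalized counts were 1371, 8476, 7884 and 6008, again low in Control and high in the 3 libraries with LPS. The log2 fold change of LPS/Control was 2.63 (2.55 to 2.71), a fold of 6.18, at rank 113 of 13277. ITGAV, its partner, had 1861, 2369, 2501 and 1656 normalized counts and a log2 fold change of 0.35 (0.26 to 0.43). In RPKM, ITGAV was 1.69 times ITGB8 in Control and 0.348 times in LPS. ITGB8 stood at 0.376 of ITGB5, another partner of ITGAV, in Control and at 2.42 times ITGB5 in LPS. With median transcript lengths it stood at 0.102 and 0.657 of ITGB5, so the order in LPS turned, while the rise of the ratio does not depend on length.

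**Figure D2:**
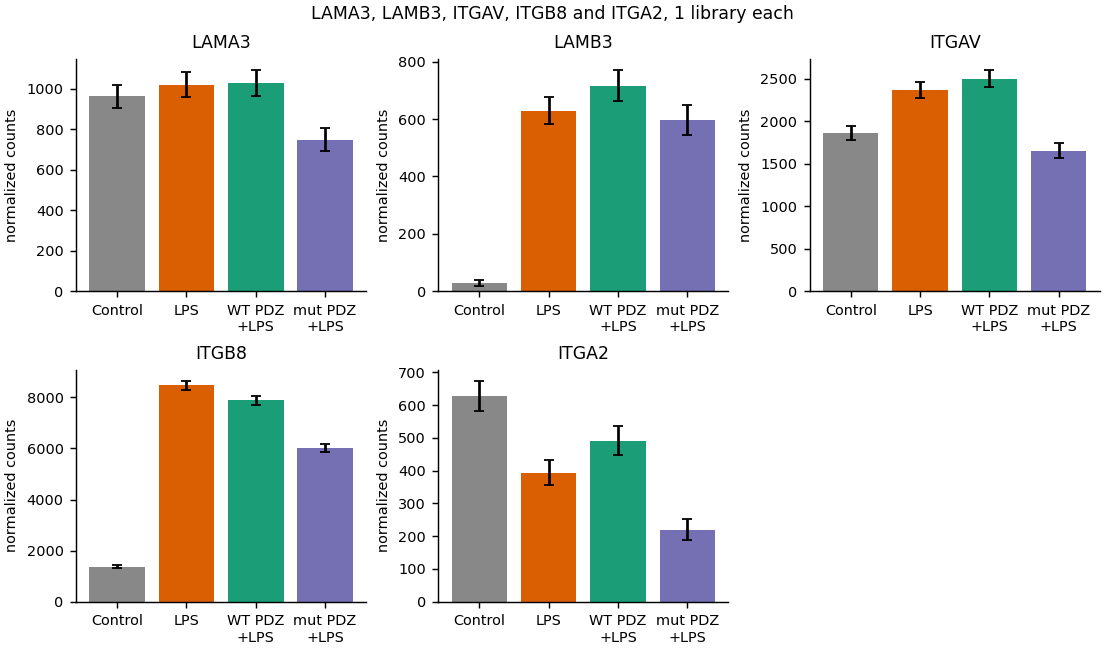
Bars give the normalized counts in the 4 libraries, 1 per condition, for the laminin chains LAMA3 and LAMB3 and for ITGAV, ITGB8 and ITGA2, and error bars are 95% Poisson intervals of the counts. The Control bar is far below the others for LAMB3 and ITGB8, while ITGA2 is highest in Control at 627 normalized counts and lowest in mut PDZ+LPS at 218.

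COL5A3, a minor chain of type V collagen, had 27 counts in Control, 59 with LPS alone, 48 with WT PDZ+LPS and 58 with mut PDZ+LPS. Its log2 fold change of LPS/Control was 1.21 (0.56 to 1.95). Other fibril chains lay between 1- and 1.5-fold higher in LPS: COL16A1, which associates with fibrils, had 0.57 (0.26 to 0.88), COL1A1 0.55 (0.34 to 0.76) and COL5A2 0.51 (0.28 to 0.74) on the log2 scale. COL5A1, the main chain of type V, had 0.16 (-0.05 to 0.37).

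ITGA2, the alpha chain of a collagen receptor with ITGB1, had 720 counts in Control, 416 with LPS alone, 487 with WT PDZ+LPS and 186 with mut PDZ+LPS, or 627, 391, 492 and 218 normalized counts. Control was the highest library and mut PDZ+LPS the lowest. The log2 fold change of LPS/Control was -0.68 (-0.86 to -0.50), past a fold of 1.5 but not of 2, and ITGA2 was the only 1 of 47 genes past 1.5-fold lower, against 4.77% of 13277 genes. Past 1.5-fold higher were the same 3 genes as at 2-fold, against 6.71%. ITGA10, another collagen-binding alpha chain, had 100, 64, 75 and 57 counts and a log2 fold change of -0.52 (-1.01 to -0.06). ITGA1, the alpha chain of a further collagen receptor, had -0.12 (-0.21 to -0.03), and ITGB1 itself 0.07 (0.04 to 0.09).

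Over the 47 genes the median log2 fold change of LPS/Control was 0.16, beside -0.0010 over 13072 genes. Higher in LPS were 21 of 23 collagens, 8 of 9 laminins, 4 of 9 integrin alpha and 5 of 6 integrin beta genes. Over the 13072 genes 49.8% were higher. With total-count scaling the family counts were 17, 4, 1 and 3, since that scaling moved all genes by -0.13. The counting interval lay above 0 for 26 of the 47 genes, against 26% of 13072 genes, and below 0 for 5, against 21.2%. Below 0 were ITGA1, ITGA2, ITGA6, ITGA10 and COL4A3. Among the basement membrane collagens COL4A5 had a log2 fold change of 0.36 (0.23 to 0.50), COL4A1 0.29 (0.13 to 0.46) and COL4A3 -0.20 (-0.34 to -0.06). COL7A1, the collagen of anchoring fibrils, had 0.27 (0.12 to 0.43), and LAMC1, the common gamma chain, 0.27 (0.23 to 0.32). ITGB2, the leukocyte beta chain, had 0.45 (0.20 to 0.70) with 234 counts in Control and 296 in LPS, but its antisense gene ITGB2-AS1 had 103 and 129 counts, and whether the counting used the strand is not given in the sources used here.

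**Figure D3:**
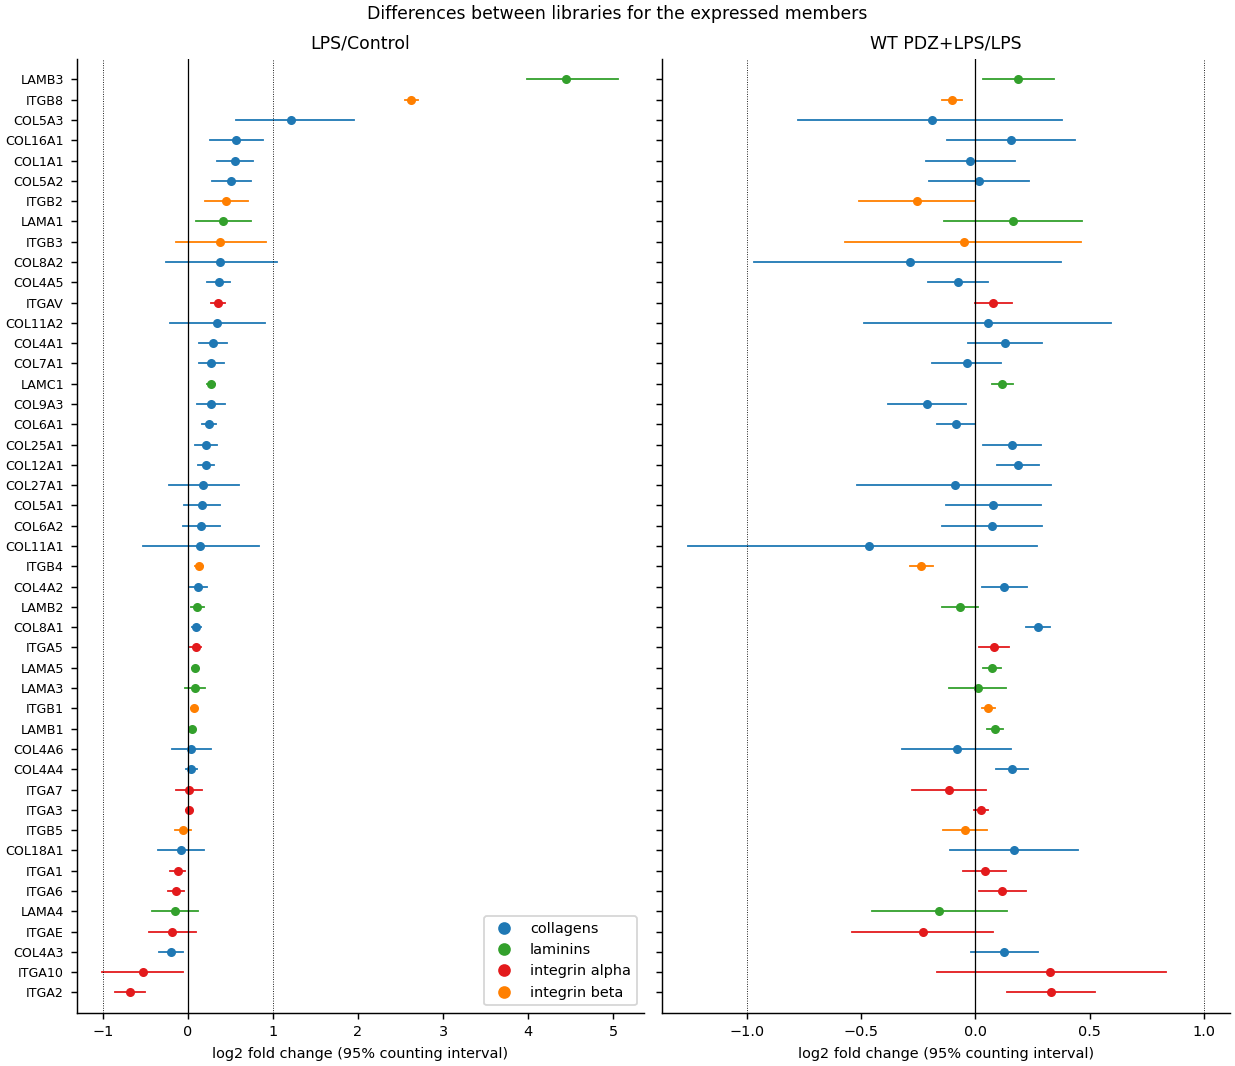
Points are log2 fold changes of 46 of the 47 genes in LPS/Control and WT PDZ+LPS/LPS with 95% counting intervals, 1 library per condition, and dotted lines mark a fold of 2. LAMB3, ITGB8 and COL5A3 lie past the line in LPS/Control, and no gene does in WT PDZ+LPS/LPS.

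WT PDZ+LPS/LPS addresses whether the wild-type peptide changed these genes under LPS. None of 48 genes (the 47 and LAMA2, a chain of muscle and nerve laminins) was called higher, against 0.635% of 13236 genes, and none lower, against 0.733%. At a fold of 1.5 the count was also 0, against 2.15% higher and 2.16% lower. The lowest was COL11A1, a minor fibril chain, at -0.47 (-1.26 to 0.27) with 39 counts in LPS and 26 in WT PDZ+LPS.

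The genes that stood apart in LPS stayed near their LPS level with WT PDZ. LAMB3 had a log2 fold change of WT PDZ+LPS/LPS of 0.19 (0.03 to 0.34), ITGB8 -0.10 (-0.15 to -0.06) and COL5A3 -0.19 (-0.78 to 0.38). ITGA2, low in LPS, was at 0.33 (0.14 to 0.52), and relative to Control it remained lower, with 492 against 627 normalized counts. COL8A1, the most abundant collagen per length, had 5034 normalized counts in LPS and 6082 in WT PDZ+LPS, or 0.27 (0.22 to 0.33). ITGB4, the hemidesmosome beta chain, had 6706 and 5692, or -0.24 (-0.29 to -0.19). The hemidesmosome alpha chain ITGA6 lay on the other side, at 0.12 (0.02 to 0.22). The counting interval was above 0 for 14 of 47 genes, against 12.1% of 13072 genes, and below 0 for 5, against 10.1%. The median over the 47 genes was 0.05, beside 0.0075 over 13072 genes.

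mut PDZ+LPS/LPS addresses the mutant peptide in the same way. Before any correction 34 of the 47 genes were lower in mut PDZ+LPS, or 72.3% beside 52.1% of 13072 genes, with 8 of 9 integrin alpha genes (7 with total-count or upper-quartile scaling) and all 6 integrin beta genes among them, and no gene was called lower. The call rule gave 1 of 48 genes (the 47 and COL9A2) higher, against 2.05% of 13378 genes, and 0 lower, against 1.9%. The higher gene was COL9A2, a chain of type IX collagen, with 8 counts in LPS and 14 in mut PDZ+LPS. It reached 16 normalized counts only in mut PDZ+LPS, the library where it was high. The interval of its log2 fold change, 1.03, reached from -0.22 to 2.59. Past 1.5-fold lower were 6 genes, against 9.8% of genes: COL12A1, COL4A4, ITGA1, ITGA2, ITGA6 and ITGB3. COL9A2 was again the only gene higher at 1.5-fold, against 7.89%. The counting interval was above 0 for 7 of 47 genes, against 28.8% of 13072 genes, and below 0 for 24, against 34.2%. The medians were -0.18 over the 47 genes and -0.02 over 13072 genes.

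Transcript length moved with this comparison. Across 12106 genes with a length in GENCODE 29, Spearman's rank correlation of length with log2 fold change reached -0.605 in mut PDZ+LPS/LPS, against 0.0755 in WT PDZ+LPS/LPS and 0.155 in LPS/Control. All points of a comparison share its 2 libraries, so it describes those libraries. The collagen, laminin and integrin genes are long, with a median of 6483 nt for the 47 genes and 3478.5 nt for the 12106 genes, and 27 of the 47 lay in the longest of 5 equal bins of genes, from 5852 nt. Within that bin the median log2 fold change was -0.29 for the 27 genes and -0.40 for all genes. In the next bin it was -0.11 for 14 genes and -0.21 for all genes, and in the middle bin -0.27 for 5 genes and -0.07 for all genes. The shortest of the 47, COL9A3 at 2497 nt, had 0.41 beside 0.10 for all genes of its bin. Over the 47 genes alone the rank correlation was -0.292.

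**Figure D4:**
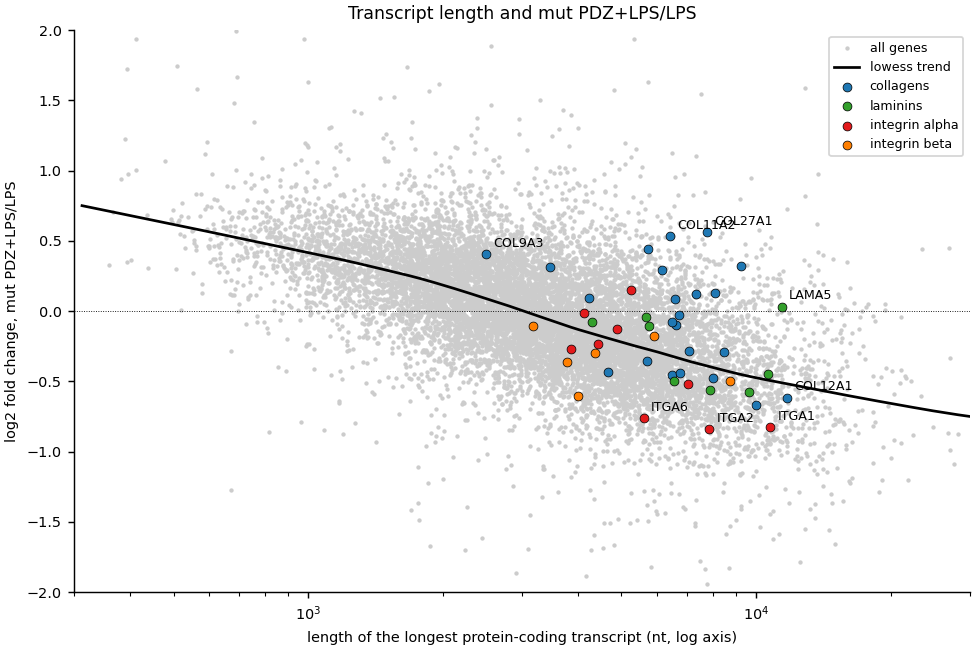
Each grey point is a gene, with the length of its longest protein-coding transcript on a log axis and the difference mut PDZ+LPS/LPS on the log2 scale, and the line is the lowess trend. Coloured points are 46 of the 47 collagen, laminin and integrin genes, most of them at the long end, with COL27A1 and COL11A2 above the trend and ITGA2 and ITGA6 below it. Genes beyond the axis limits are not drawn.

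A lowess trend over length and then GC content was removed from the log2 fold changes, and the median of the 47 genes in mut PDZ+LPS/LPS became -0.0011, with 22 higher and 25 lower. The rank correlation with length was then 0.0928 over all genes and 0.242 over the 47 genes. No gene was past 2-fold after the correction, where 1.22% of 12330 genes were higher and 0.941% lower. By family the median went from -0.03 (0.0069 with total-count and 0.04 with upper-quartile scaling) to 0.07 in collagens, -0.13 to 0.09 in laminins, -0.27 to -0.14 in integrin alpha and -0.33 to -0.16 in integrin beta genes. All 6 integrin beta genes were lower before and after it, though with the length trend alone removed ITGB4 was higher and 5 were lower. The epithelial markers summed to 55835 normalized counts in mut PDZ+LPS, against 37014 to 41459.6 in the other 3 libraries. Keratins carried this sum: KRT17 had a log2 fold change of mut PDZ+LPS/LPS of 0.94, KRT18 0.37 and KRT8 0.28, but CDH1 had -0.65 and TP63 -0.71. The median of the 9 markers that averaged 16 or more normalized counts was 0.28 before and 0.07 after the correction. The part of transcript length or of these markers in any single gene was not tested.

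Once length and GC content were taken out, 15 of 23 collagens were higher in mut PDZ+LPS than in LPS. By contrast, 7 of 9 integrin alpha and all 6 integrin beta genes were lower, none of these integrins past 1.5-fold. Over 12106 genes 5961 were higher and 6145 lower after the correction. COL27A1, a fibril chain of 7790 nt, had 103 counts in LPS and 122 in mut PDZ+LPS, and went on the log2 scale from 0.56 to 0.79 (0.41 to 1.19). Intervals given for corrected values are the counting intervals shifted with the value, and they leave out any error of the fitted trend. COL11A2, a minor fibril chain, went from 0.53 to 0.63 (0.13 to 1.16). COL4A3, a chain of the basement membrane collagen of lung and kidney, went from 0.13 (-0.02 to 0.28) to 0.60 (0.45 to 0.75). It had 702 and 768 normalized counts in LPS and mut PDZ+LPS. The correction took COL4A3 at 8097 nt, its longest protein-coding transcript, while the median of its protein-coding transcripts is 910 nt. Its corrected value at another length was not tested. COL27A1, COL11A2, COL4A3 and COL9A2 were the 4 genes past 1.5-fold higher after the correction, against 4.87% of 12330 genes. Past 1.5-fold lower were 0, against 3.54%. COL9A2 passed the rule on counts only through mut PDZ+LPS, so its place in this count rests on that library.

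COL4A4, which assembles with COL4A3 and COL4A5, had 3068 normalized counts in Control, 3155 with LPS alone, 3524 with WT PDZ+LPS and 1983 with mut PDZ+LPS. Its log2 fold change of mut PDZ+LPS/LPS was -0.67 before and -0.13 after the correction. The ratio of COL4A4 to COL4A3 in RPKM, with no correction, was 3.08 in Control and up to 3.72 in WT PDZ+LPS, but 2.09 in mut PDZ+LPS. With median transcript lengths COL4A4 was the lower chain, at 0.627, 0.756 and 0.425 of COL4A3 in these libraries. The longest of the 47 transcripts, COL12A1 at 11723 nt, codes for a fibril-associated chain and went from -0.62 to -0.01. LAMA5, the most abundant alpha laminin, is nearly as long at 11426 nt and went from 0.03 to 0.24 (0.20 to 0.28). With the length trend alone removed LAMA5 stood at 0.54, so the choice of correction can move a value beyond its interval. COL7A1 went from 0.32 to 0.51 (0.37 to 0.66), and LAMB1 from -0.10 to 0.23 (0.19 to 0.27).

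Of the integrins, ITGA2 had a log2 fold change of mut PDZ+LPS/LPS of -0.84 before and -0.37 (-0.63 to -0.12) after the correction. ITGA1 went from -0.83 to -0.28 (-0.40 to -0.16), and ITGA6 from -0.76 to -0.42 (-0.55 to -0.29). These 3 alpha chains were lower than in LPS on both scales. ITGAV went from -0.52 to -0.11 (-0.21 to -0.02) and ITGB1 from -0.36 to -0.19 (-0.22 to -0.16). ITGA3, the most abundant alpha chain, went from -0.12 to -0.06 (-0.09 to -0.03). Higher after the correction were ITGA10, a collagen-binding chain that went from 0.15 to 0.41 (-0.13 to 0.95), and ITGA7, a laminin-binding chain that went from -0.01 to 0.00037 (-0.17 to 0.17). LAMB3 and ITGB8 were close to their LPS level after the correction, at -0.01 (-0.18 to 0.16) and -0.02 (-0.07 to 0.03), while ITGB8 stood at -0.50 before it.

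**Figure D5:**
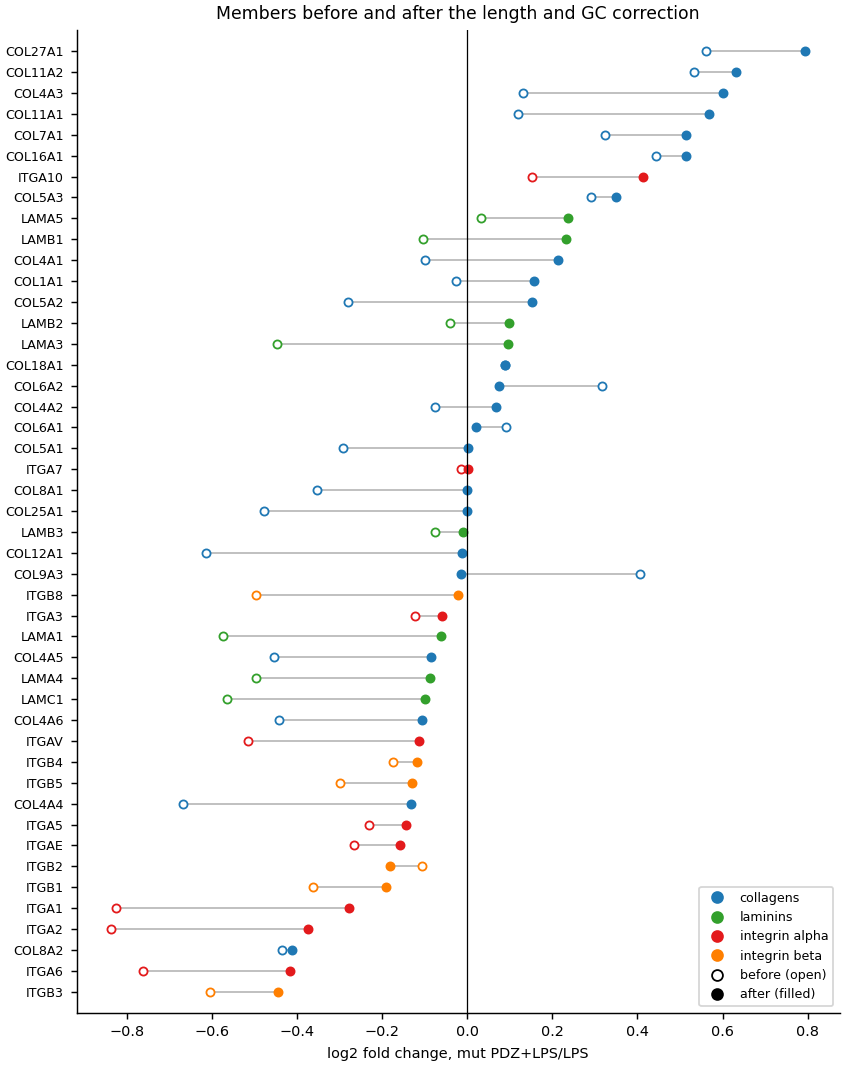
Each row is 1 of 46 genes, with its mut PDZ+LPS/LPS difference on the log2 scale before (open point) and after (filled point) the length and GC correction, 1 library per condition. COL27A1 is the highest after it at 0.79 and ITGB3 the lowest at -0.44, and long genes such as COL12A1, COL4A4 and ITGA1 moved far to the right.

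mut PDZ+LPS/WT PDZ+LPS compares peptides that differ by the glycine to alanine change, at the same times. ITGA2 was the only 1 of 49 genes (the 47, LAMA2 and COL9A2) called, against 2.14% of 13372 genes lower and 2.12% higher. It had 218 normalized counts in mut PDZ+LPS against 492, a log2 fold change of -1.17 (-1.42 to -0.92), and after the correction -0.67 (-0.92 to -0.42), which is no longer past 2-fold. COL11A1 was the only gene past 2-fold after the correction, at 1.06 (0.29 to 1.87) from 26 and 34 counts, against 1.24% of 12320 genes higher and 0.877% lower. The counting interval lay above 0 for 7 of 47 genes, against 29.4% of 13072 genes, and below 0 for 25, against 34.6%. The median over the 47 genes was -0.23 before and 0.0054 after the correction. At a fold of 1.5 before the correction, 11 genes were lower, against 10.7% of genes, and 3 higher, against 8.4%. After the correction ITGA2 was the only gene lower at this fold, against 3.47% of 12320 genes, and COL11A1, COL11A2, COL27A1 and COL7A1 were higher, against 5.23%. The peptides gave LAMB3 at -0.26 (-0.43 to -0.10) and ITGB8 at -0.39 (-0.44 to -0.34) before, and -0.21 (-0.37 to -0.04) and 0.13 (0.08 to 0.18) after the correction. With 1 library per peptide, whether the peptides differ in effect on any of these genes cannot be told apart from the difference between the libraries.

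Against Control, mut PDZ+LPS had LAMB3 at 4.37 (3.90 to 4.98), ITGB8 at 2.13 (2.05 to 2.21), COL16A1 at 1.01 (0.72 to 1.32) and ITGA2 at -1.52 (-1.76 to -1.29) on the log2 scale, and COL5A3 at a fold of 2.82. These were the 4 genes called higher, against 5.13% of 13434 genes, and the 1 called lower, against 2.96%, and the same 5 were called after the correction, against 4.33% and 1.75% of 12366 genes. ITGA2 then had -1.10 (-1.35 to -0.87).

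Other matrix proteins and receptors were counted in the same way over written lists. Of 14 matrix glycoproteins and proteoglycans TNC, tenascin C, was the only gene called in LPS/Control, with 272 counts in Control and 1583 in LPS and a log2 fold change of 2.65 (2.47 to 2.84). FN1, the fibronectin bound by ITGA5 with ITGB1, had 0.56 (0.53 to 0.58). None of the 14 was called in WT PDZ+LPS/LPS. FBN1, a microfibril gene, was the only 1 called in mut PDZ+LPS/LPS, lower with 2412 normalized counts against 4831. After the correction it was at -0.40 on the log2 scale. In mut PDZ+LPS/WT PDZ+LPS, where 13 of this list passed the rule on counts, FBN1 at -1.01 and FBN2 at -1.12 were called lower. They were at -0.37 and -0.51 after the correction. Of 9 other matrix receptors SDC4, the heparan sulfate proteoglycan that acts beside integrins at adhesions, was called in LPS/Control, with 7553 counts in Control and 106747 in LPS and a log2 fold change of 3.93 (3.90 to 3.97). DDR2, a collagen-binding kinase, was the only 1 of these called in mut PDZ+LPS/LPS, with 21 counts in LPS and 3 in mut PDZ+LPS. These were 19.8 and 3.52 normalized counts, so DDR2 passed the rule on counts only through LPS, where it was high. The interval of the difference, -2.20 on the log2 scale, reached from -4.87 to -0.74. No value after the length and GC correction is given for DDR2.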

How the data were processed

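RNA of 4 BEAS-2B libraries, 1 per condition, was poly(A)-selected and made into directional libraries. The authors trimmed adapters, dropped reads of low quality, mapped with TopHat (build hg19 in the submitters' processing notes) and deposited raw counts per gene symbol. The counting tool, annotation and use of strand are not given in the sources used here. FPKM and geometric normalization are named in the paper, but the deposited values are whole counts. Groups came from the treatment labels, with no batch given.

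Size factors came from DESeq2 1.42.0 in R 4.3.3, with TMM from edgeR 4.0.16 as an alternative. No test was possible. Length and GC content came from GENCODE 29, taking the longest protein-coding transcript of a gene (12106 of 13072 genes matched), and the lowess span was 0.3 (statsmodels 0.14.6). Sequences were RefSeq's on GRCh38.p14, and no coordinates were converted. Named were the chains of the hemidesmosome laminin and integrin, the partners of ITGB1 and ITGAV, leukocyte integrins, fibrillar, anchoring and basement membrane collagens, the 5 highest and 5 lowest genes of each comparison, the 3 most abundant of each family, and every called gene, 53 in all. LAMA2, ITGA7, COL6A2, COL6A3, COL10A1, COL15A1 and COL25A1, and the genes at 0, were named after their values were seen. 1 of the 47 genes is counted in the totals but not reported or drawn here. The genes and lists were chosen with earlier results of these data known. The steps were tested on simulated data. The alternatives were other scalings, length corrections, pseudocounts, expression rules, folds and transcript lengths.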

Additional observations from a re-analysis of the deposited data

How the results depend on the processing

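No paired analysis was possible because each condition had 1 library, and for the same reason no replicate could be left out. With no rule on expression, LPS/Control gave 8 higher and 5 lower genes in place of 3 and 0, WT PDZ+LPS/LPS 6 and 3 in place of 0 and 0, mut PDZ+LPS/LPS 7 and 4 in place of 1 and 0, and mut PDZ+LPS against WT PDZ+LPS 4 and 5 in place of 0 and 1, at low counts. At 64 normalized counts mut PDZ+LPS/LPS gave 0 higher and LPS/Control 2, without COL5A3. At 1.5-fold the lower genes were 1 in LPS/Control and 6 in mut PDZ+LPS/LPS, while mut PDZ+LPS against WT PDZ+LPS had 11 lower and 3 higher, or 1 and 4 after the length and GC correction. Total-count and upper-quartile scaling each gave 1 gene lower in LPS/Control, and total-count scaling a median of 0.0265 in place of 0.16. The gene called lower was in each case outside the 47. ITGA2, the lowest of the 47, was at -0.81 with total-count and -0.74 with upper-quartile scaling, short of 2-fold. The length and GC correction, and the correction for length, GC content and length again (chosen after seeing the data), gave 0 genes higher in mut PDZ+LPS/LPS, and both, and length alone, gave 1 higher and 0 lower in mut PDZ+LPS/WT PDZ+LPS. The median of mut PDZ+LPS/LPS (-0.18) was -0.0011 with length and GC content removed, 0.0828 with length alone, -0.0286 with length removed again, and 0.0895 as a difference from genes of the same length bin. For mut PDZ+LPS/WT PDZ+LPS (-0.23) these were 0.0054, 0.0734, 0.00512 and 0.0623. The cause of these moves was not tested beyond the corrections themselves. TMM scaling changed the sign of 0 of the 47 genes in each comparison, total-count scaling that of 13 in LPS/Control, and the length and GC correction that of 11 in mut PDZ+LPS/LPS. With the median instead of the longest transcript length, RPKM moved beyond its counting interval in 30 of 41 named genes. Genes under about 60 counts, such as COL5A3 and COL11A1, have intervals wider than 1 on the log2 scale.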

Other observations

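Enzymes that build collagen and proteins that tie integrins to actin were also listed. Of 18 collagen-modifying enzymes and chaperones none was called in LPS/Control, WT PDZ+LPS/LPS or mut PDZ+LPS/LPS. LOX, which cross-links collagen and elastin, came closest in LPS/Control, with 4387 counts in Control and 7910 in LPS and a log2 fold change of 0.96 (0.91 to 1.02), just under 2-fold. P4HA2, a prolyl hydroxylase subunit, had 0.50 (0.42 to 0.59). SERPINH1, the collagen chaperone of the endoplasmic reticulum, had -0.08 (-0.14 to -0.02) in LPS/Control but 0.47 (0.41 to 0.52) in mut PDZ+LPS/LPS, which the length and GC correction left at 0.43. PCOLCE, an enhancer of procollagen cleavage, was called in mut PDZ+LPS/WT PDZ+LPS, at 1.18 (0.59 to 1.83) with 35 and 69 counts and 0.74 after the correction.

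Of 22 adaptor and focal adhesion genes none was called in LPS/Control or WT PDZ+LPS/LPS. FERMT3 was called higher in mut PDZ+LPS/LPS, with 14 counts in LPS and 26 in mut PDZ+LPS. These were 13.2 and 30.5 normalized counts, so FERMT3 passed the rule on counts only through the library where it was high. The log2 fold change of 1.15 (0.22 to 2.26) was 0.90 and no longer past 2-fold after the correction. DST, a linker of hemidesmosomes to keratin, was lower in mut PDZ+LPS/WT PDZ+LPS at -1.08 (-1.15 to -1.01), or -0.26 after the correction. PLEC, the other hemidesmosome linker, had 0.20 (0.18 to 0.21) there and 0.51 after it. CD44, the hyaluronan receptor, had 536 counts in Control and 966 in LPS, a log2 fold change of 0.96 (0.81 to 1.12) that is short of 2-fold. These lists were written with earlier results of these data known, and their values have no replicate check.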
